A study of Mus musculus with 15 samples.

Results

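BMDMs, which are macrophages grown in culture from mouse bone marrow, were compared after 24 h with IL-4 at 10 ng/ml and after 24 h with IL-13 at 40 ng/ml, both without IL-6. The comparison rested on 6 of the 15 RNAseq libraries of the series, 3 per cytokine, chosen by their labels, and 3 libraries without cytokine (control) served as the reference level. By the paper's culture methods the marrow came from Arg1-YFP+/+ mice aged 8 to 12 weeks, which carry a fluorescent reporter at Arg1. It was grown for 7 days in medium with 20 ng/ml M-CSF. The paper's sequencing methods do not restate the genotype. The 6 other libraries received IL-6 beside IL-4 or IL-13 and were used to choose gene sets and for a parallel comparison. They also entered the common fit of all 15 libraries, and so the low-count filter and the spread behind each p-value. The doses of the cytokines differ, so that cytokine and dose cannot be told apart. The labels number the replicates of a group 1 to 3 and do not say whether they are separate animals or cultures, and the p-values then measure the spread between these libraries, which may be technical.

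IL-4 and IL-13 are related cytokines of type 2 immunity that drive macrophages into the alternatively activated (M2) state, known for the arginase Arg1, resistin-like and chitinase-like proteins, lectin receptors and chemokines. IL-4 binds IL-4R alpha and then recruits either the common gamma chain (Il2rg, the type I receptor) or IL-13R alpha 1 (Il13ra1, the type II receptor), whereas IL-13 signals through the type II receptor. Both receptors activate STAT6, which binds DNA where TTC and GAA stand 4 bases apart, and SOCS proteins feed back on the receptors and their JAK kinases.

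The deposited values were whole-number read counts per gene. They summed to between 17787364 and 18479299 per IL-4 library, between 17198060 and 18842203 per IL-13 library and between 17001352 and 18278484 per control library. IL-13 replicate 1 stood apart from the other IL-13 libraries. Gene levels varied between replicates with a biological coefficient of 10.9% for IL-13, 4.54% for IL-4 and 4.48% for control. When genes were ranked by length into 4 equal classes, IL-13 replicate 1 differed from the other IL-13 libraries by a median log2 value of 0.20 in the shortest class and of -0.23 in the longest. Median log2 differences of IL-13 over IL-4 ran from -0.12 in the shortest to 0.14 in the longest class. Of these classes, 3.49% of the shortest genes and 15.4% of the longest genes were called higher in IL-13, and 7.27% and 3.33% were called lower. The part of gene length in the results was not tested beyond the fits without that library and with a length correction. These fits are given for some of the results that they move. Levels below are normalized CPM (read counts scaled to a common library size with TMM factors), and folds are IL-13 over IL-4 unless stated otherwise.

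The identity of the cells as macrophages was checked with 14 markers, all of them measured. Their summed level was 39190 to 40340 CPM with IL-4 and 39950 to 45120 CPM with IL-13, and Adgre1 (F4/80), Csf1r (the M-CSF receptor) and Cd68 were not called between the cytokines. Of this list 3 genes were higher in IL-13, Lyz2, Mertk and Fcgr1, and 3 were lower, Mrc1 and Lgals3 among them. Markers of granulocytes and their precursors summed to 25.5 to 27.1 CPM with IL-4 and 22.0 to 24.8 CPM with IL-13, and megakaryocyte markers to 10.1 to 12.3 and 10.5 to 13.2 CPM, against 564 to 659 and 347 to 384 CPM in control. By edgeR's test 0 of 14 and 0 of 9 tested members of these lists were called between IL-4 and IL-13, and DESeq2 called 0 as well. Of 15 granulocyte markers, 9 had at most 3 counts in every IL-4 library and 6 in every IL-13 library. Of 9 megakaryocyte markers these were 4 and 3. Genes at this floor could hardly be called in either direction. At an unadjusted p under 0.05 there were 2 granulocyte markers in each direction and 0 megakaryocyte markers. Monocyte markers summed to 27.4 to 28.9 CPM with IL-4 and 63.6 to 65.2 CPM with IL-13, and Cx3cr1 and Nr4a1 were higher in IL-13. Dendritic cell markers summed to 331 to 373 CPM with IL-4 and 198 to 219 CPM with IL-13, with Batf3 and Itgax lower in IL-13. The part of such cells in the results was not tested. Among B cell markers Ighm was higher in IL-13 (log2 fold change 0.50), and among basophil, mast cell and eosinophil markers Kit was (0.87). Of the markers of T and NK cells, stromal cells and erythroid cells, only 4 of 14, 5 of 11 and 1 of 9 were tested. By edgeR's test and by DESeq2, 0 of those tested were called, with 1, 0 and 0 at an unadjusted p under 0.05. Most markers of these lists were at that floor with either cytokine. The T and NK cell markers still summed to 183.2 to 191.5 CPM with IL-4 and 192.1 to 222.0 CPM with IL-13. In bulk RNA fewer cells of a type and less RNA per cell cannot be told apart.

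In all, 13938 genes passed the filter on low counts and were tested with edgeR's quasi-likelihood test and Benjamini-Hochberg adjustment over all of them. With an adjusted p under 0.05, 1060 genes (7.61%) were higher in IL-13 than in IL-4 and 719 genes (5.16%) were lower. The replicate values of the groups did not overlap for 1762 of these 1779 genes (99.0%) and for 31.5% of all tested genes. The first share follows largely from the calls, which rest on the same values, and is no separate evidence for them. A log2 fold change beyond 1 was reached by 148 genes that were higher (1.06%) and 147 that were lower (1.05%) in IL-13, so that most called differences were below a doubling. The median log2 fold change over all tested genes was 0.02. Without IL-13 replicate 1 the calls numbered 1623 higher and 1291 lower, and 1655 of the 1779 genes were also called there. When trends of GC content and length were removed they numbered 1154 and 1098.

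Genes named by size or significance, in either direction, were taken only from those whose IL-4 and IL-13 replicates did not overlap. Their separation between the cytokines thus follows from the choice. The genes with the largest differences in favour of IL-4 included M2 genes. Retnla encodes the resistin-like protein Fizz1 and lies at chr16:48842551-48844461 on the plus strand of GRCm38. No Retnla read was counted in the control libraries, while its level was 668, 765 and 752 CPM in the IL-4 libraries and 56.2, 49.7 and 47.4 CPM in the IL-13 libraries. The lowest IL-4 library was thus far above the highest IL-13 library, and the means differed 14.2-fold (log2 fold change -3.83, SE 0.16, adjusted p = 1.2e-09). Against 3 counts per library, the floor used for control, Retnla was at least 4454-fold higher with IL-4 and at least 313-fold higher with IL-13.

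The promoter of Retnla (250 bases before to 50 bases after the start, from RefSeq on GRCm38.p6) is shown because it was the only promoter among those found for the 34 genes singled out by size, significance or opposite direction that held TTC and GAA with 4 bases between them, the gapped palindrome of STAT6. RefSeq promoters were at hand for 24 of these genes. The capitals mark the match on the plus strand, which begins 145 bases before the start, in chr16:48842359-48842658.
Retnla: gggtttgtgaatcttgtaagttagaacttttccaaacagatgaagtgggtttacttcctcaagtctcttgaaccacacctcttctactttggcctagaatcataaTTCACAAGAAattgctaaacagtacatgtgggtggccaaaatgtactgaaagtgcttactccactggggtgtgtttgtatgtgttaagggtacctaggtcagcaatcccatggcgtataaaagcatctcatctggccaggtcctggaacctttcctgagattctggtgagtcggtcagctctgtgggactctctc
Over all tested genes with a promoter, 674 of 9984 (6.75%) held this motif. It was present in 52 of 556 genes lower in IL-13 (9.35%) and in 40 of 840 genes higher in IL-13 (4.76%). Beyond a log2 fold change of 1 it was present in 14 of 109 (12.8%) and 5 of 104 (4.81%). Each count covers both strands, and the motif is its own reverse complement. These shares are a description of the letters in the windows.

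Arg1, the enzyme that splits arginine into ornithine and urea (chr10:24915221-24927484, minus strand), was at 2.55, 3.27 and 3.08 CPM in control, at 4494, 4418 and 4268 CPM with IL-4 and at 795, 1020 and 970 CPM with IL-13. Every IL-4 library exceeded every IL-13 library, by 4.73-fold between the means (log2 fold change -2.24, SE 0.10, adjusted p = 3.1e-10). Both cytokines raised Arg1 over control (log2 fold change 10.53 with IL-4 and 8.29 with IL-13). If the sequenced cells carried the reporter at this locus, as the paper's culture methods give, the levels are those of the modified gene. Slc7a2, a carrier that brings arginine into the cell, followed with 522, 487 and 483 CPM with IL-4 and 112, 174 and 156 CPM with IL-13 (log2 fold change -1.76, SE 0.13, adjusted p = 1.0e-07). Of the 22 tested genes of arginine, proline and polyamine metabolism only Srm (spermidine synthase, -0.40) was also lower, while the polyamine oxidases Smox (0.69) and Paox (0.31) and the antizyme inhibitor Azin1 (0.19) were higher in IL-13. Paox lost its call without IL-13 replicate 1 (adjusted p = 0.074) and Azin1 after the removal of GC and length trends (adjusted p = 0.15). The called shares of this list were 13.6% in either direction, against 7.61% higher and 5.16% lower over all tested genes, and its median was -0.16, or -0.15 without 1 gene at or under 3 counts.

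Chil3, which encodes the chitinase-like protein Ym1, behaved differently. Its level was 178, 186 and 166 CPM in control, 537, 554 and 554 CPM with IL-4 and 193, 198 and 179 CPM with IL-13. The IL-13 libraries lay among and just above the control libraries and below every IL-4 library. The difference between the cytokines was -1.53 (log2, SE 0.07, adjusted p = 5.1e-10), with a log2 fold change over control of 1.63 for IL-4 and of 0.10 for IL-13, the latter not called (adjusted p = 0.21). The related Chil4 was at 4.06, 2.77 and 3.44 CPM with IL-4 and at 0.428, 0.563 and 0.103 CPM with IL-13 (log2 fold change -3.23).

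**Figure D1:**
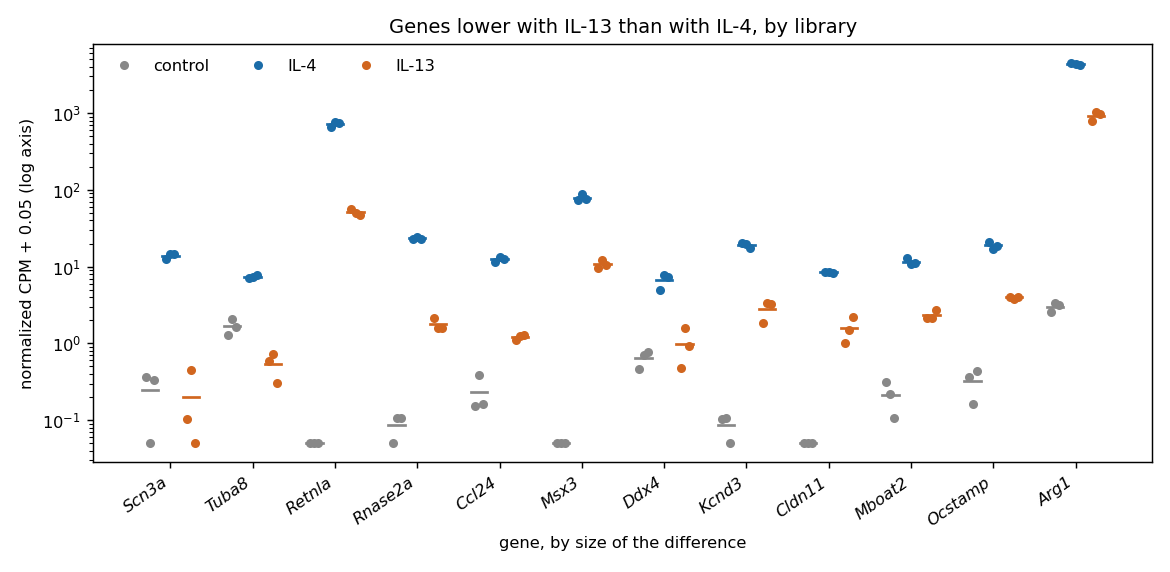
The 12 genes lower in IL-13 with the largest log2 fold changes among those at 5 CPM or more in a cytokine group, with the level of each library (normalized CPM plus 0.05, log axis; grey control, blue IL-4, orange IL-13) and bars at the means of 3 libraries. For each gene the 3 IL-4 libraries lie above the 3 IL-13 libraries, because only genes with replicates that do not overlap were eligible. Scn3a in IL-13 lies at the level of control.

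For some genes the difference was one of kind. Scn3a, a voltage-gated sodium channel subunit (chr2:65457118-65567627, minus strand), was at 0.312, 0 and 0.280 CPM in control, at 12.7, 14.6 and 14.5 CPM with IL-4 and at 0.0535, 0.394 and 0 CPM with IL-13. It was raised by IL-4 and lay at the level of control with IL-13, with a log2 fold change of -6.53 (SE 0.41, adjusted p = 1.4e-08). The size of this difference rested on few IL-13 reads, most of them in replicate 2, and it was -8.71 without IL-13 replicate 2 and -5.94 without replicate 3. Scn3a overlaps the antisense gene Gm13595 in the annotation, and reads of overlapping genes may not have been told apart.

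Tuba8, an alpha-tubulin, was at 1.25, 2.05 and 1.57 CPM in control, 7.11, 7.30 and 7.74 CPM with IL-4 and 0.535, 0.675 and 0.257 CPM with IL-13. It was raised by IL-4 (log2 fold change 2.19 over control) and fell by 1.73 on the log2 scale with IL-13, and the cytokines differed by -3.91 (SE 0.26, adjusted p = 1.9e-08). Ddx4, a germ-line RNA helicase, was at 4.92, 7.63 and 7.25 CPM with IL-4 and at 0.428, 1.52 and 0.875 CPM with IL-13, against 0.417, 0.665 and 0.729 CPM in control. Its change over control was called for IL-4 and not for IL-13 (adjusted p = 0.23).

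Other genes of this group were raised over control by both cytokines, and more by IL-4. Ccl24, the eosinophil-attracting chemokine eotaxin-2, was at 11.6, 13.4 and 12.5 CPM with IL-4 and at 1.07, 1.18 and 1.24 CPM with IL-13 (log2 fold change -3.42, SE 0.21). Rnase2a, an eosinophil-associated ribonuclease, was at 22.5, 24.2 and 23.0 CPM with IL-4 and at 2.09, 1.52 and 1.54 CPM with IL-13 (-3.75, SE 0.25). Msx3, a homeobox factor, was at 74.8, 87.0 and 76.6 CPM with IL-4 and at 9.63, 12 and 10.5 CPM with IL-13 (-2.89, SE 0.12). In each of these genes the groups were far apart, and no control library exceeded 0.332 CPM.

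The potassium channel gene Kcnd3 (-2.79), the tight junction gene Cldn11 (-2.44), the lysophospholipid acyltransferase gene Mboat2 (-2.33) and the fusion protein gene Ocstamp (-2.27) belonged to the same kind. Cdh1 (E-cadherin), a known IL-4 target of macrophages, was among the most significant, with 59.4, 58.9 and 56.6 CPM with IL-4 and 16.7, 19.9 and 18.5 CPM with IL-13 (-1.67, SE 0.07, adjusted p = 3.1e-10). All 34 genes that the rules on size, significance and opposite direction named kept their direction and their call in each of the 17 fits, the one reported here included. These fits reuse the libraries by which the genes were chosen and are not independent of that choice.

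Among 37 tested markers of alternative activation, 29 were lower in IL-13 and 2 were higher (Cd163, the haemoglobin scavenger receptor, 0.65, and Il1rn, the IL-1 receptor antagonist, 0.53), and 21 of the 29 were lower by more than 1 on the log2 scale. The median was -1.48, or -1.30 when Cd209a, at or under 3 counts in every IL-4 and IL-13 library, was left out. Over all tested genes 5.16% were lower and the median was 0.02. The other lower members included the sugar-binding receptors Mgl2 (-1.69) and Clec10a (-1.59), the transcription factors Irf4 (-1.63), Egr2 (-1.07) and Klf4 (-0.96), the checkpoint ligand Pdcd1lg2 (-1.48) and the mannose receptor Mrc1 (-1.0). Mrc1 was at 1002, 992 and 992 CPM with IL-4 and at 401, 577 and 509 CPM with IL-13, both above the 191 to 203 CPM of control. Over control, 29 members were raised and 8 lowered with IL-4, and 27 and 8 with IL-13, comparisons that share the control libraries. Of the 19 tested genes that the paper names in mouse cells, which are in part the same genes, 10 were lower in IL-13 and 2 were higher (Il4ra and Stat3), with a median of -1.0.

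Of the 1060 genes higher in IL-13, 542 (51.1%) were below control with both cytokines and further with IL-4. Cx3cr1, the fractalkine receptor of monocytes and tissue macrophages, was at 136, 129 and 146 CPM in control, 4.12, 6.08 and 5.89 CPM with IL-4 and 41.0, 36.6 and 39.5 CPM with IL-13. The IL-13 libraries lay between the other groups without overlap, and exceeded IL-4 by 7.28-fold (log2 fold change 2.86, SE 0.14, adjusted p = 9.4e-10). The annotated span of Cx3cr1 (chr9:119901616-120069879) also holds other genes, Csrnp1, Gorasp1 and Xirp1 among them, and how such reads were assigned is not given in the sources used here.

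Adra1a, an adrenergic receptor, followed this pattern with 29.0, 28.6 and 27.9 CPM in control, 1.18, 0.830 and 1.15 CPM with IL-4 and 4.34, 5.85 and 5.41 CPM with IL-13 (log2 fold change 2.30, SE 0.26). So did Icosl, the ligand of the T cell costimulator ICOS, with 2.51, 2.1 and 0.763 CPM with IL-4 and 6.05, 6.98 and 7.36 CPM with IL-13 (1.92, SE 0.26). The same order of control, IL-13 and IL-4 held for Inpp4b, a lipid phosphatase (1.84), Gpr84, a receptor for medium-chain fatty acids (1.72), Hpgd, which degrades prostaglandins (1.60), and Clec4e, the receptor Mincle (1.60). Among the most significant were the integrin chain Itga6 (1.31), the small GTPases Rab32 (1.02) and Rap2a (0.98), and the protease Ctsc (0.97). Ctsc was at 327, 341 and 329 CPM in control, 90.9, 88.2 and 87.3 CPM with IL-4 and 169, 180 and 173 CPM with IL-13.

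**Figure D2:**
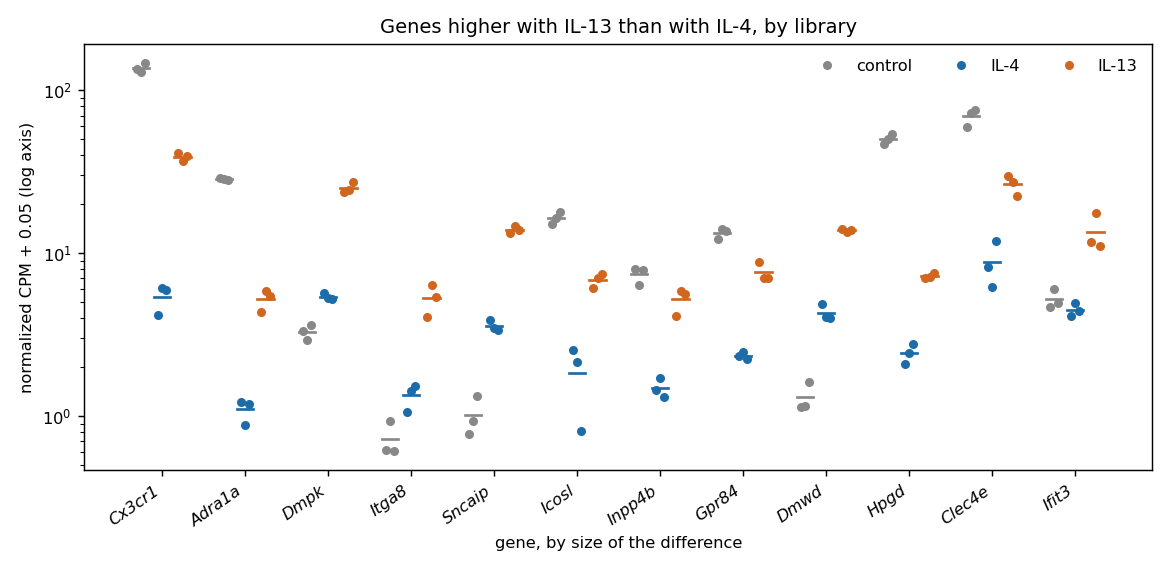
The 12 genes higher in IL-13 with the largest log2 fold changes among those at 5 CPM or more in a cytokine group, drawn per library (normalized CPM plus 0.05, log axis; grey control, blue IL-4, orange IL-13) with bars at the means of 3 libraries. Only genes whose IL-4 and IL-13 replicates do not overlap were eligible. For most of them the IL-13 libraries lie between control and IL-4, while Dmpk, Dmwd, Itga8, Sncaip and Ifit3 lie above both.

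A smaller number of genes rose above control further with IL-13. Dmpk, a serine/threonine kinase gene (chr7:19083849-19093821, plus strand), was at 3.28, 2.88 and 3.59 CPM in control, 5.67, 5.26 and 5.18 CPM with IL-4 and 23.5, 24.3 and 27.2 CPM with IL-13 (log2 fold change 2.22, SE 0.16, adjusted p = 4.8e-08). Its neighbor Dmwd (chr7:19076227-19082776, plus strand) was at 1.09, 1.11 and 1.57 CPM in control, 4.81, 3.98 and 3.98 CPM with IL-4 and 14.1, 13.4 and 13.8 CPM with IL-13 (1.69, SE 0.12). Sncaip, which encodes a synuclein-binding protein, was at 0.729, 0.886 and 1.29 CPM in control, 3.85, 3.43 and 3.33 CPM with IL-4 and 13.3, 14.6 and 13.8 CPM with IL-13 (1.97, SE 0.17). In these genes the IL-13 libraries were the highest, the IL-4 libraries intermediate and the control libraries the lowest, with no overlap.

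Itga8, an integrin chain, was called over control with IL-13 and not with IL-4 (adjusted p = 0.068), at 1.02, 1.38 and 1.47 CPM with IL-4 and 4.01, 6.36 and 5.35 CPM with IL-13. The interferon-induced Ifit3 was at 4.63, 5.98 and 4.88 CPM in control, 4.06, 4.87 and 4.36 CPM with IL-4 and 11.7, 17.5 and 11.1 CPM with IL-13 (log2 fold change 1.60, SE 0.32, adjusted p = 0.0026). Here control and IL-4 overlapped, and each IL-13 library was above both.

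Whether a difference was one of strength or of kind was read from the place of each cytokine relative to control. Of the 1779 genes that differed, 970 (54.5%) were called over control with both cytokines in the same direction and moved further with IL-4, 428 of them upward and 542 downward. Another 175 (9.84%) moved in the same direction and further with IL-13. These differences of strength made up most of the genes, against 36 (2.02%) that moved in opposite directions with IL-4 and IL-13. Called over control with IL-4 only were 379 genes (21.3%), with IL-13 only 186 (10.5%) and with neither 33 (1.85%). Because each of these genes was called between the cytokines, the difference itself was tested, but the class of a gene near the threshold depends on the test over control. The background of called genes was high, 68.0% of tested genes for IL-4 over control and 60.1% for IL-13 over control, in comparisons that share the 3 control libraries. Without IL-13 replicate 1 the class that moved further with IL-4 held 1425 genes (48.9%) and the class called with IL-4 only held 877.

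**Figure D3:**
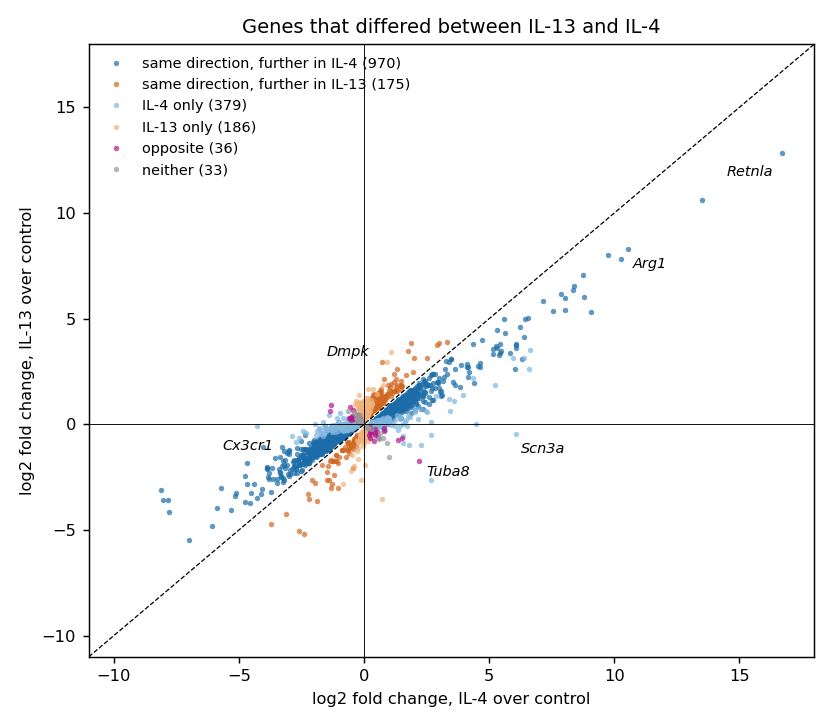
Log2 fold change over control with IL-4 (horizontal axis) and with IL-13 (vertical axis) for the 1779 genes called between IL-4 and IL-13, colored by class, with a dashed line where both changes are equal. The 970 genes that moved further with IL-4 lie between the horizontal axis and the dashed line in both directions, and the 36 opposite genes lie in the upper left and lower right fields.

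Among the 295 genes beyond a log2 fold change of 1, the class that moved further with IL-4 held 147 (49.8%). The 72 of them that were lower in IL-13 had a median log2 fold change over control of 4.59 with IL-4 and 2.81 with IL-13, and the 75 that were higher in IL-13 had -3.17 and -1.69. Called with IL-4 only were 83 (28.1%), Scn3a, Ddx4 and Chil3 among them. Called with IL-13 only were 25 (8.47%), and moved further with IL-13 were 22 (7.46%).

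The 10 opposite genes (3.39%) beyond that size included Tuba8 and the feedback inhibitor Socs2. Socs2 was at 2.50, 3.21 and 2.35 CPM in control, 7.59, 8.52 and 7.14 CPM with IL-4 and 1.82, 1.74 and 1.60 CPM with IL-13. It rose with IL-4 (log2 fold change 1.53 over control) and fell by 0.64 on the log2 scale with IL-13 (adjusted p = 0.0080), and the cytokines differed by -2.17 (SE 0.17, adjusted p = 1.3e-07). The gene model Gm8113 was also raised by IL-4 and lowered by IL-13, at 8.72, 9.74 and 9.71 CPM against 1.98, 2.76 and 1.85 CPM. In the other direction the lincRNA Gm6634 was at 0.481, 0.719 and 0.600 CPM with IL-4 and 2.68, 2.53 and 3.30 CPM with IL-13, around a control of 1.16 to 1.77 CPM. Rhobtb1 was at 1.23, 1.83 and 0.545 CPM with IL-4 and 3.80, 5.01 and 5.46 CPM with IL-13, around 2.66 to 3.43 CPM. In Gm6634 and Rhobtb1 the control libraries lay between the cytokine groups without overlap.

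Gene sets chosen by contrasts that leave out the IL-4 and IL-13 libraries, in the same fit, were also compared. The 266 genes raised beyond a log2 fold change of 2 in both IL-6 groups over control had a median log2 fold change of IL-13 over IL-4 of -0.42 (quartiles -1.31 and -0.07), with 108 called lower in IL-13 (40.6%) and 15 called higher (5.64%). The 930 genes lowered beyond that size in both IL-6 groups had a median of 0.28, with 109 called higher (11.7%) and 18 called lower (1.94%). Over all tested genes the corresponding shares were 5.16% lower and 7.61% higher.

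The lists that follow are to be read against the 7.61% higher, the 5.16% lower and the median of 0.02 over all tested genes. Of 12 tested receptor chains, JAKs and STATs, 3 were higher (25%) and 1 was lower (8.33%) in IL-13, with a median of 0.17. Il4ra, the chain that both receptors share, was at 87.4, 91.2 and 92.2 CPM in control, 37.4, 35.5 and 34.0 CPM with IL-4 and 49.6, 51.5 and 51.7 CPM with IL-13. It was lowest with IL-4, with no overlap between the groups (log2 fold change 0.52, SE 0.07, adjusted p = 0.00013). Stat3 (0.30) and Stat5b (0.27) were higher and Jak2 was lower (-0.33), and these 3 genes were called in 13, 9 and 15 of 17 fits. Il13ra1 (0.40, adjusted p = 0.24), Il2rg (-0.14, adjusted p = 0.54) and Stat6 (0.19, adjusted p = 0.085) did not pass the test. On the FPKM scale, which divides by gene length, Il2rg was at 7.81 with IL-4 and 7.18 with IL-13, and Il4ra at 6.01 ± 0.30 and 8.71 ± 0.30 (SD, n = 3). Il13ra1, the IL-13 binding chain, was much lower, at 0.778 and 1.04 FPKM, against 7.30 FPKM in control.

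Of 25 tested feedback inhibitors of cytokine signaling, 4 were lower and 4 were higher in IL-13 (16.0% each, against 5.16% and 7.61% of all tested genes), with a median of 0.04 (-0.03 after the removal of GC and length trends). The lower genes were all of the SOCS family, and included Socs2 above. Socs1 was at 1.04, 1.11 and 0.897 CPM in control, 40.0, 38.4 and 31.6 CPM with IL-4 and 12.1, 9.45 and 9.32 CPM with IL-13 (log2 fold change -1.83, SE 0.15, adjusted p = 1.4e-07). Cish, which is induced by STAT5, was at 4.81, 4.98 and 4.31 CPM with IL-4 and 0.803, 1.35 and 1.24 CPM with IL-13 (-2.05, SE 0.27, adjusted p = 4.4e-05). Both were above control with either cytokine and separated the groups without overlap. Socs6 was lower by a smaller amount (-0.51), and Socs3 was at 1.28 to 2.24 CPM with IL-4 and 1.03 to 1.66 CPM with IL-13 (-0.41, adjusted p = 0.37). The ERK pathway inhibitors Spry2 (1.03) and Dusp6 (0.79), the phosphatase Ptpn6 (0.36) and the repressor Bcl6 (0.21) were higher in IL-13. Bcl6 lost its call after the removal of GC and length trends (adjusted p = 0.084). That fit called 3 feedback inhibitors higher and 5 lower, and the fit without IL-13 replicate 1 called 6 higher.

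The promoter of Cish is shown because it held the shorter palindrome of other STAT proteins, TTC and GAA with 3 bases between them, at 2 places, in capitals, the one beginning at the start site and the other 11 bases after it (chr9:107296409-107296708, plus strand, RefSeq, GRCm38.p6). This motif was searched after the data had been seen.
Cish: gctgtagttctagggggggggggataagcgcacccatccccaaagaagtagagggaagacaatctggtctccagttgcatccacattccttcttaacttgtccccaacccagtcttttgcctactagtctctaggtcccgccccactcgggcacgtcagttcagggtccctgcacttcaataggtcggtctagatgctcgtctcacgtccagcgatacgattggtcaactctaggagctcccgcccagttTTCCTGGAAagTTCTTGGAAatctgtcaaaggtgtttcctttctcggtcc
It was found, on either strand, in 8.19% of promoters of tested genes, in 8.45% of those lower and in 7.50% of those higher in IL-13. Beyond a log2 fold change of 1 it was found in 12 of 109 lower genes (11.0%) and in 7 of 104 higher genes (6.73%).

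Among 22 tested chemokines, 8 were lower (36.4%, against 5.16% of all tested genes) and 2 were higher (9.09%, against 7.61%) in IL-13, with a median of 0.08 that was -0.0048 without IL-13 replicate 1. The monocyte attractant Ccl7 was at 425, 423 and 467 CPM with IL-4 and at 135, 127 and 111 CPM with IL-13 (log2 fold change -1.82, SE 0.13, adjusted p = 4.8e-08). Ccl2, its neighbor on chromosome 11, was at 293, 297 and 309 CPM against 136, 123 and 107 CPM (-1.30, SE 0.11, adjusted p = 3.6e-07). Ccl8 (-1.77) and Ccl12 (-1.69) of the same cluster were lower as well at levels below 8 CPM, beside Ccl4 (-0.80), Ccl3 (-0.39) and Ccl9 (-0.33), which attract other leukocytes. Ccl3 lost its call after the removal of GC and length trends (adjusted p = 0.097). That fit called 4 chemokines higher and 7 lower. Cxcl16 was higher, at 14.6, 14.2 and 15.1 CPM with IL-4 and 34.5, 24.8 and 27.3 CPM with IL-13 (0.98), and the neutrophil attractant Cxcl2 was higher at 0.267 to 1.36 CPM and 1.69 to 4.01 CPM (1.95, SE 0.52, adjusted p = 0.018). Cxcl2 was called in 13 of 17 fits. It lost its call without IL-13 replicate 1 (adjusted p = 0.051), IL-13 replicate 3, IL-4 replicate 1 or IL-4 replicate 2, and was 2.76 without IL-4 replicate 3.

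Of 27 tested inflammatory genes, 7 were higher (25.9%, against 7.61% of all tested genes) and 3 were lower (11.1%, against 5.16%) in IL-13, with a median of 0.16, or 0.18 without 2 genes at or under 3 counts. The higher genes were Cxcl2, Clec4e, the NF-kappaB regulators Nfkbiz (1.51) and Nfkbia (0.31), the adhesion molecule Icam1 (0.80), the receptor Tlr2 (1.49) and the cytokine Tnf (1.04). Tlr2 was at 134 to 151 CPM in control, 8.93, 11.0 and 10.6 CPM with IL-4 and 32.3, 26.4 and 27.3 CPM with IL-13. Tnf was at 15.2 to 18.6 CPM in control, 12, 16.4 and 16.9 CPM with IL-4 and 35.1, 28.9 and 29.0 CPM with IL-13, which placed IL-13 above both. Ccl3, Ccl4 and the costimulator Cd40 (-0.66) were lower. Without IL-13 replicate 1, Nfkbia lost its call (adjusted p = 0.066), as did Cxcl2.

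Of 39 tested interferon-stimulated genes, 9 were higher in IL-13 (23.1%, against 7.61% of all tested genes) with a median of 0.39, and 0 were lower by edgeR's test, by DESeq2 or at an unadjusted p under 0.05. Besides Ifit3 these were Ifit1 (0.95), Oas2 (0.90), Oas3 (0.90), Trim30a (0.63), Parp14 (0.57), Rtp4 (0.52), Ddx58 (0.40) and Irf9 (0.33), genes of antiviral defence. Irf7 had a log2 fold change of 0.64 that missed the threshold (adjusted p = 0.080). Rtp4 lost its call without IL-13 replicate 1 (adjusted p = 0.068). The number higher was 13 without IL-13 replicate 1 and 22 without a filter on low counts.

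The list of 13 antigen presentation genes of MHC class II had 5 members lower (38.5%, against 5.16% of all tested genes) and 1 higher (7.69%, against 7.61%) in IL-13, 7 not called and a median of -0.31. Ciita, the transactivator of these genes, was at 12.7 to 13.7 CPM in control, 2.51, 3.04 and 3.22 CPM with IL-4 and 0.749, 1.69 and 1.03 CPM with IL-13 (log2 fold change -1.34, SE 0.27, adjusted p = 0.0024). H2-Eb1 (-0.54), H2-Ab1 (-0.47), H2-DMa (-0.46) and H2-DMb1 (-0.29) were lower by smaller amounts and were called in 14, 12, 16 and 11 of 17 fits. H2-DMb1 lost its call after the removal of GC and length trends (adjusted p = 0.068). That fit called 4 members lower, and the fit without IL-13 replicate 1 called 7 lower. Ciita and H2-Eb1 were below control with both cytokines and further with IL-13. H2-Ob was called higher from at most 2 counts in an IL-4 library, so that IL-13 was at least 2.40-fold higher.

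**Figure D4:**
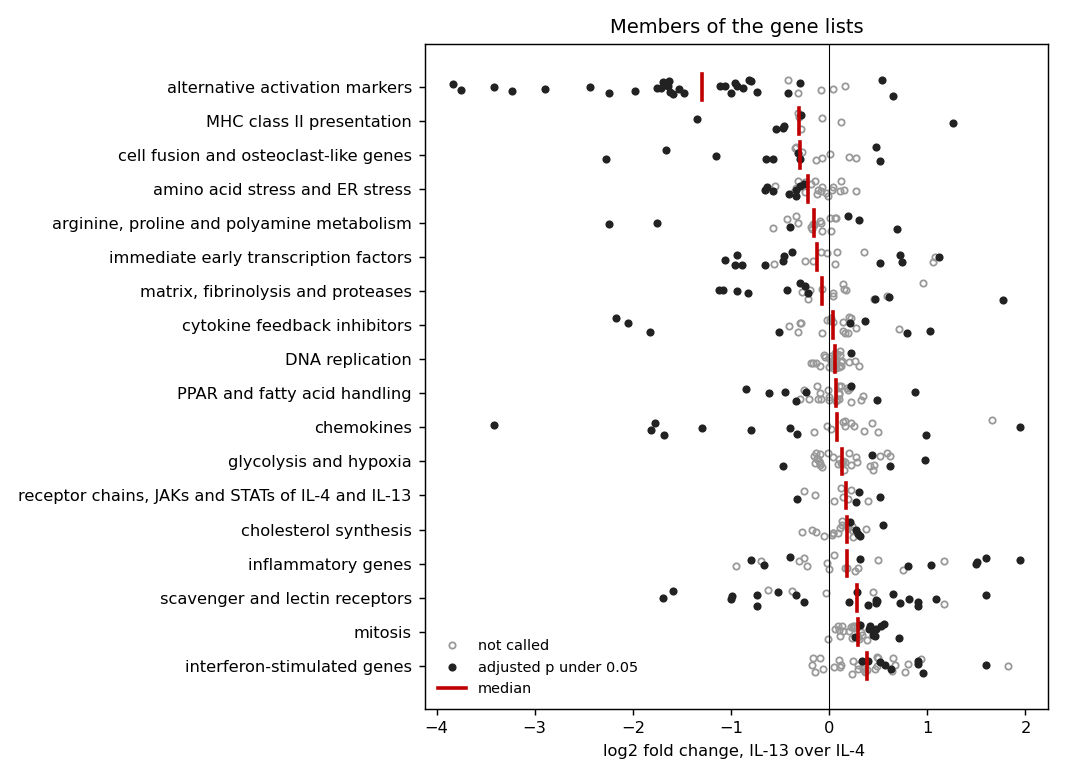
Log2 fold change of IL-13 over IL-4 for the tested members of 18 gene lists, with filled points for an adjusted p under 0.05, open points for the others and a red bar at the median, leaving out genes at or under 3 counts in every library of both groups and setting those at this floor in 1 group to their bound. The alternative activation list lies to the left with a median of -1.30, and the interferon-stimulated list has the median farthest to the right, 0.39.

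Receptors for uptake and sugars were split. Of 31 tested scavenger and lectin receptors, 13 were higher (41.9%, against 7.61% of all tested genes) and 9 were lower (29.0%, against 5.16%) in IL-13, and the median was -0.03, or 0.28 without 4 genes at or under 3 counts. Lower were Mgl2, Clec10a and Mrc1, the beta-glucan receptor Clec7a (-0.74) and the inhibitory Fc receptor Fcgr2b (-0.73). Higher were Clec4e and Clec4d (1.09), the apoptotic cell receptor Mertk (0.81) with its ligand Gas6 (0.90), Stab1 (0.72) and the activating Fc receptor Fcgr1 (0.90). Fcgr1 was at 152 to 158 CPM in control, 102, 99.7 and 100.2 CPM with IL-4 and 200, 190 and 175 CPM with IL-13, and so was called in opposite directions.

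Among 17 tested genes of cell fusion and osteoclast-like cells, 7 were lower (41.2%, against 5.16% of all tested genes) and 2 were higher (11.8%, against 7.61%) in IL-13, with a median of -0.30. Ocstamp was at 21, 16.9 and 18.8 CPM with IL-4 and 3.96, 3.77 and 4.02 CPM with IL-13. The integrin Itgb3 (-1.15), the tetraspanin Cd81 (-0.65), the proton pump subunit Atp6v0d2 (-0.57), Acp5 (-0.31) and Ctsk (-0.30) were lower, and Itgav (0.48) and the RANKL receptor Tnfrsf11a (0.52) were higher. Ctsk lost its call after the removal of GC and length trends (adjusted p = 0.075). That fit called 4 genes of this list higher and 6 lower. Of 24 tested matrix, fibrinolysis and protease genes, 8 were lower (33.3%), Timp1 (-1.12), F10 (-1.08), Fn1 (-0.94) and Mmp13 (-0.83) foremost, and 3 were higher (12.5%), Mmp2 (1.77), Plau (0.61) and Spp1 (0.46), with a median of -0.04, or -0.07 without 1 gene at or under 3 counts.

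Of 23 tested immediate early and related transcription factors, 8 were lower (34.8%, against 5.16% of all tested genes) and 4 were higher (17.4%, against 7.61%) in IL-13. The median was -0.17, or -0.12 without 1 gene at or under 3 counts. Egr2 was at 28.9 to 29.9 CPM in control, 194, 179 and 184 CPM with IL-4 and 81.4, 94.4 and 90.2 CPM with IL-13. Ier3 (-0.93), Fosl2 (-0.89) and Myc (-0.46) were lower beside Klf4. Maf was higher (1.12), at 123, 122 and 124 CPM with IL-4 and 241, 289 and 274 CPM with IL-13, near the 233 to 264 CPM of control.

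Of 28 tested amino acid and ER stress genes, 8 were lower in IL-13 (28.6%, against 5.16% of all tested genes), among them Atf3 (-0.65), the serine synthesis enzymes Phgdh (-0.64) and Psat1 (-0.41), and Asns (-0.34). The median was -0.25, or -0.22 with a gene at the floor in 1 group set to its bound. None was higher (0 by edgeR, by DESeq2 and at an unadjusted p under 0.05). Of 31 PPAR and fatty acid genes, 5 were lower (16.1%), Pparg (-0.45) among them, and 3 were higher (9.68%, near the 7.61% of all tested genes), with Abca1 at 0.87 (median 0.07, or -0.0021 after the removal of GC and length trends). Of 33 glycolysis and hypoxia genes, 3 were higher (9.09%) and 1 was lower (3.03%), near the 7.61% and 5.16% of all tested genes, with a median of 0.13. Without IL-13 replicate 1, 6 were higher.

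Of 23 cholesterol synthesis genes, 5 were higher in IL-13 (21.7%, against 7.61% of all tested genes, median 0.18), and the number higher was 2 with upper-quartile factors and 10 without IL-13 replicate 1. Of 32 mitosis genes, 10 were higher in IL-13 (31.2%, median 0.30), or 13 without IL-13 replicate 1 and 7 with upper-quartile factors. Cenpf (0.72), Kif23 (0.56) and Mki67 (0.53) led them, and 27 members were below control with IL-4 and 25 with IL-13. Of 32 DNA replication genes, 1 was higher (3.12%, median 0.06), and this gene, Lig1 (0.22), lost its call without IL-13 replicate 1 (adjusted p = 0.056). In these 3 lists 0 genes were lower by edgeR, by DESeq2 or at an unadjusted p under 0.05.

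The comparison of IL-13/IL-6 with IL-4/IL-6 shares no library with the one described here, but both come from the same fit. Of the 295 genes beyond a log2 fold change of 1, 270 (91.5%) had the same sign there and 210 (71.2%) had the same sign and were called, while 3 were called with the opposite sign, Maf, Vegfc and Chst15, named because they were the exceptions. In that comparison 31.3% of all tested genes were called. The difference between the comparisons was called for 67 of the 295 genes (22.7%) and for 7.64% of all tested genes. It was smaller with IL-6 for 28, larger for 27 and of opposite sign for 12.

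Arg1 differed by -1.48 with IL-6 and by -2.24 without it (adjusted p of the difference 0.0012), and Dmwd by 0.01 and 1.69 (adjusted p = 3.4e-06). Retnla differed by -4.11 and -3.83, which was not called as a change. Ctsc (1.95 and 0.97) and Gpr84 (3.48 and 1.72) differed more in the presence of IL-6.

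**Figure D5:**
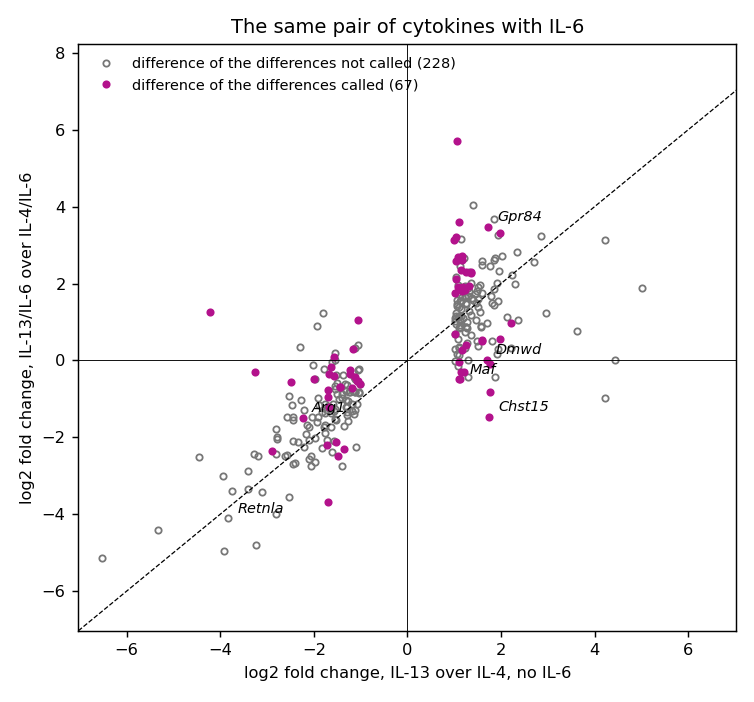
Log2 fold change of IL-13 over IL-4 without IL-6 (horizontal axis) and of IL-13/IL-6 over IL-4/IL-6 (vertical axis) for the 295 genes beyond 1 on the horizontal axis, with a dashed line of equality. The 67 filled magenta points are genes whose difference changed with IL-6 by the test of the difference of differences, and 270 genes lie in the fields of equal sign.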

How the data were processed

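The authors deposited a matrix of raw read counts per gene (53465 Ensembl identifiers, 15 libraries) and one list of FPKM values per library, which the authors had calculated from the deposited counts, gene length and library total (checked on 268061 values). Bone marrow cells were grown with M-CSF, treated for 24 h and extracted with Trizol, and sequencing was done by a service company. The submitters' processing notes name GRCm38, CASAVA, Bowtie2 2.2.3, HISAT2 2.1.0, TopHat2 and DESeq2 without roles, and counting parameters and strand use are not given in the sources used here. Symbols and positions came from GENCODE vM21 on GRCm38, and promoters from RefSeq.

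The count matrix was fitted in edgeR 4.0.16 under R 4.3.3. Genes that passed filterByExpr at a minimum count of 10 were kept, libraries were scaled with TMM factors, and all 15 libraries in 5 groups entered one quasi-likelihood fit with no covariate. Contrasts were tested with glmQLFTest and adjusted by Benjamini-Hochberg over 13938 genes, with 0.05 as the threshold. Counts at or under 3 in every library of a group were taken as the floor. Depth, as summed counts, was between 17001352 and 18842203 in the libraries compared. SE values are those of the fit.

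Named were the 12 largest called changes per direction with separate replicates and at least 5 CPM, the 5 most significant per direction, the 5 largest of opposite direction, members of the gene and marker lists, and the mouse genes named by the paper. The comparison, members and lists were chosen with earlier results of these data known. Alternatives were RLE, upper-quartile and no scaling factors, DESeq2 1.42.0, other filters, fits of 9 or 6 libraries, a replicate block, glmTreat, and each library left out. A GC and length correction was added after the data were seen. Some members of these lists are not reported here. The scripts were tested on simulated data.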

Additional observations from a re-analysis of the deposited data

Results flagged for a closer look

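The difference between IL-13 and IL-4 changed with IL-6 for 1065 of the tested genes, by a test of the difference of differences (edgeR, quasi-likelihood, Benjamini-Hochberg). Among the genes named by size, significance or opposite direction, the log2 difference with IL-6 minus that without IL-6 was 0.76 for Arg1, 0.54 for Msx3, 0.46 for Cdh1 and -0.59 for Chil3. It was 0.98 for Ctsc, 0.62 for Itga6, -0.31 for Rap2a, -0.34 for Rab32, -1.06 for Hpgd and 1.76 for Gpr84. For Sncaip it was 1.34, for Rhobtb1 -1.42, for Dmpk -1.24 and for Dmwd -1.68. For the neighbors Dmpk and Dmwd the excess of IL-13 over IL-4 was thus smaller with IL-6. Most of these genes were named by their difference without IL-6, which is itself part of this test. What sets these changes was not tested. Groups of 3 libraries are too small for the test of single outlying values.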

How the results depend on the processing

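No named gene called here changed direction under any alternative, and of 2911 combinations of 182 named called genes and alternatives 2656 kept the call. The 1060 higher genes became 644 to 1623 and the 719 lower genes 444 to 1291 when single libraries were left out, with 1623 and 1291 without IL-13 replicate 1, and 664 and 647 higher without IL-4 replicates 2 and 3. Without IL-13 replicates 2 and 3 there were 675 and 644 higher and 474 and 444 lower genes. Lower genes numbered 1153 without a filter, 1328 with 9 libraries and 1098 with the GC and length correction. Of all calls 59.6% were higher in IL-13, against 50.5% with upper-quartile factors and 51.2% with the correction. Tested against a log2 fold change of 1 (glmTreat), 12 genes were higher and 51 lower. Deviations from the group mean had correlations of -0.28, -0.0098 and -0.27 between IL-4 and IL-13 libraries of the same replicate number. Between unlike numbers the correlations ran from -0.17 to 0.27. Because IL-13 replicate 1 stood apart, these values cannot decide whether the numbers pair the samples. With a replicate block 919 genes were higher and 633 lower.

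With sets chosen beyond a log2 fold change of 1, 46 raised genes were higher and 274 lower in IL-13 (median -0.23), and 272 lowered genes were higher and 48 lower (median 0.23). The median of the raised set was -0.48 with upper-quartile factors, -0.46 unscaled, -0.45 at 1 CPM and -0.50 to -0.37 with a library left out. That of the lowered set was 0.16 without a filter, 0.31 at 1 CPM and 0.21 to 0.31 with a library left out, where 68 to 139 genes were higher (68 and 72 without IL-4 replicates 2 and 3, 69 without IL-13 replicate 3) and 9 to 19 lower (10 and 11 without IL-4 replicates 1 and 3, 9 without IL-13 replicate 3). With 9 libraries, 1624 genes moved further with IL-4, 273 further with IL-13 and 55 in opposite directions, and the correction gave 271 further with IL-13. With single libraries left out these classes held 568 to 1425 (617 and 614 without IL-4 replicates 2 and 3, 610 and 568 without IL-13 replicates 2 and 3), 108 to 224 (116 and 108 without IL-4 replicates 1 and 3) and 22 to 49 genes (22 without control replicate 1). IL-4 only held 235 to 877 (235 without IL-4 replicate 3, 243 without IL-13 replicate 2) and IL-13 only 104 to 256 (121 and 123 without IL-4 replicates 2 and 3, 111 and 104 without IL-13 replicates 2 and 3). The count of genes whose difference changed with IL-6 was 1601 with the correction. Causes were not tested.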
